A study of Mus musculus with 2 samples.

Results

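The NR4A genes, Nr4a1, Nr4a2 and Nr4a3, had 17 of the 28438 open chromatin regions that ATAC-seq found in mouse blood monocytes. A region was given to one of the 3 genes when its summit lay in the gene body, or within 100 kb of a start of the gene with no other protein-coding start nearer. The gene Nr4a1 held 10 of these regions, Nr4a2 held 4 and Nr4a3 held 3. ATAC-seq marks accessible DNA by letting the transposase Tn5 insert sequencing adapters into it. The samples were blood monocytes of C57BL/6J mice, adults of 5 to 6 weeks, and the labels name no treatment or altered allele. There was 1 group of 2 biological replicates, each from 50000 cells, and no control group. Because both replicates carry 1 donor identifier and nothing tells whether different animals were bled, their spread may be only technical. How the cells were sorted, and which monocyte subsets they held, is not stated in the labels.

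The NR4A family encodes orphan nuclear receptors. Nr4a1 encodes NUR77, Nr4a2 encodes NURR1 and Nr4a3 encodes NOR1. Their ligand pocket is filled by the receptor's own side chains, so their activity is set largely by how much protein a cell makes. All are immediate early genes, switched on quickly by cAMP, calcium, growth factors or inflammatory signals through CREB, MEF2 and serum response factor. The receptors bind the element NBRE as monomers, and Nr4a1 and Nr4a2 can also pair with the retinoid X receptor. In mice, Nr4a1 is needed for the nonclassical (Ly6C-low) monocytes that patrol vessels, and an upstream enhancer of the gene with a site for KLF2 has been tied to that role. Nr4a2 is best known from midbrain dopamine neurons, and Nr4a3, in mice, from the migration of dendritic cells.

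The sequence just upstream of 4 starts with an open promoter is shown first, because letters of the cAMP response element (CRE) are found in each. The start of the longer Nr4a1 transcript also has an open promoter and such letters, and its sequence is not shown. The main start of a gene was that of its principal transcript with transcript support level 1 in GENCODE M21. Capitals mark the short CRE motif TGACG or its reverse complement, and each line reads 5′ to 3′ on the strand of the gene, from the RefSeq sequence of build GRCm38.p6. The windows are chr15:101266646-101266845 (plus strand) for Nr4a1, chr2:57115039-57115238 (minus strand) for the main start of Nr4a2, chr2:57124004-57124203 (minus strand) for its upstream start, and chr4:48044953-48045152 (plus strand) for Nr4a3.
Nr4a1 main promoter: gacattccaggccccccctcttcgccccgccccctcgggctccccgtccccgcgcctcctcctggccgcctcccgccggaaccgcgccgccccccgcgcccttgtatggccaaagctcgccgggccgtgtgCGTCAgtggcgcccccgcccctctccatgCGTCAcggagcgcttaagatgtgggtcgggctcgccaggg
Nr4a2 main promoter: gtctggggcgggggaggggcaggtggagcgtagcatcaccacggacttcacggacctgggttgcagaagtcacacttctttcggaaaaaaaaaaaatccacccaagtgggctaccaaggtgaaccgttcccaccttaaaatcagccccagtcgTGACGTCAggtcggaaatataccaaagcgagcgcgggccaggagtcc
Nr4a2 upstream promoter: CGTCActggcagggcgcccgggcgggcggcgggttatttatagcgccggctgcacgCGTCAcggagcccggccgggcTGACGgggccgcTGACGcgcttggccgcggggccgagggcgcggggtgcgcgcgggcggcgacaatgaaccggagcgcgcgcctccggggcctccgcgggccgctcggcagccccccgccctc
Nr4a3 promoter: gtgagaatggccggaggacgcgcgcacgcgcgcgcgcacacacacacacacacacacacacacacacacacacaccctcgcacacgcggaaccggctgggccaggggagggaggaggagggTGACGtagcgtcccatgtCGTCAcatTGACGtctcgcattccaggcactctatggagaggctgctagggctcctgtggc

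These windows of 200 bases held 2 matches for the main promoter of Nr4a1, 2 for the main promoter of Nr4a2, 4 for the upstream promoter of Nr4a2 and 3 for the promoter of Nr4a3. Both matches at the main promoter of Nr4a2 lie within 1 full CRE, TGACGTCA, which reads the same on both strands. The genes have 7 protein-coding starts in all. Of the 3 not shown, the start of the longer Nr4a1 transcript had 2 matches, and the starts of Nr4a2 at 57113072 and of Nr4a3 at 48049114 had 0. Thus 5 of 7 starts had a match and 2 had 3 or more. Of the 54361 starts of protein-coding transcripts, 17.7% had a match in the same window and 0.684% had 3 or more. These include starts without an open region and were not matched to the NR4A starts in base composition. A match describes the letters and does not show that a factor was bound.

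The other sequences shown are those of the strongest open regions upstream of Nr4a1 that held the KLF motif CCNCACCC, in which N is any base. KLF2 and KLF4 are zinc finger factors that bind such CACCC elements. Capitals mark the KLF motif on either strand and, in the more distant region, also TGACG. The window chr15:101246290-101246490 (plus strand) surrounds a summit 20.46 kb upstream of the main start, and chr15:101262663-101262863 (plus strand) one 4.08 kb upstream.
Nr4a1, 20.46 kb upstream: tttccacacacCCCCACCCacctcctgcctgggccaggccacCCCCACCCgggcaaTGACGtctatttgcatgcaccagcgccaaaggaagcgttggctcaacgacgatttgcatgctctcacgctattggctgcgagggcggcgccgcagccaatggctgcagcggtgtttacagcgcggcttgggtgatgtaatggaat
Nr4a1, 4.08 kb upstream: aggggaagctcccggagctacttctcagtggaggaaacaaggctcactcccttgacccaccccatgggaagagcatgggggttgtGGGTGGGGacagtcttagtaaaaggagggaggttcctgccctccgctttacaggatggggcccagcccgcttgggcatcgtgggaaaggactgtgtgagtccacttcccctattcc

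The strength of a region was read from the authors' peak values, the fold enrichment over background and the −log10 p. In the authors' conservative set, which rests on both replicates together, the strongest promoter region had a fold of 6.10 at Nr4a3, 5.63 at Nr4a2 and 3.76 at Nr4a1. All 3 genes had an open promoter, that is a region within 1 kb of a protein-coding start, as had 46.6% of 21829 protein-coding gene symbols. All 3 also had at least 1 distal region, farther from every such start, as had 33.7% of these genes. In bulk chromatin, fewer cells with a region open and less opening per cell cannot be told apart, and this holds for every value given here.

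**Figure D1:**
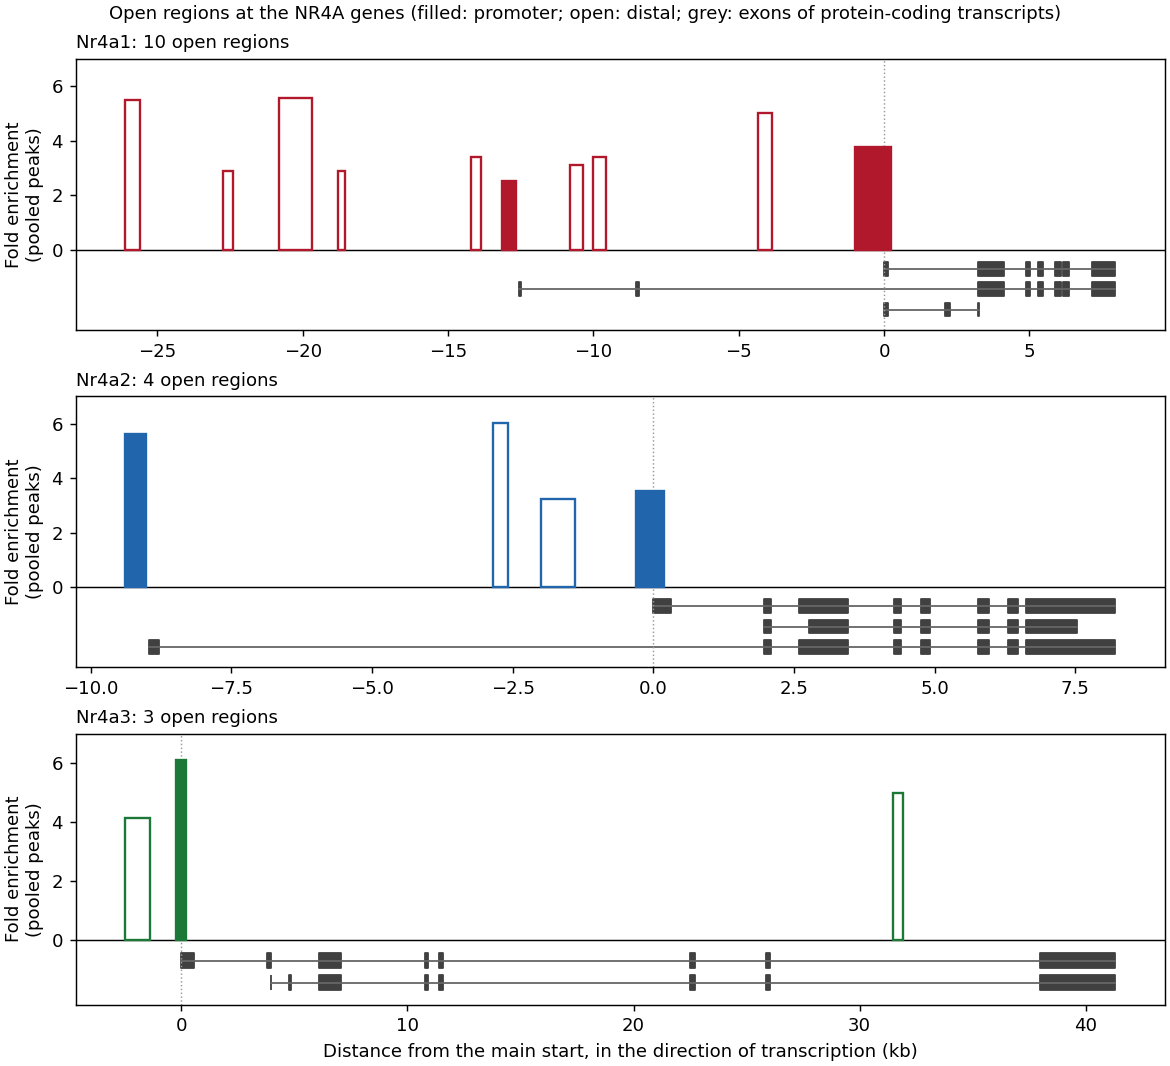
Each panel plots the open regions of 1 gene as bars, with the pooled fold enrichment on the y axis and the distance in kb from the main start, in the direction of transcription, on the x axis. Filled bars are promoter regions, open bars are distal regions and the bar width is the region's width. Grey boxes are exons of protein-coding transcripts, and the 10 Nr4a1 regions all have their summit upstream of its main start while Nr4a3 has a region 31.66 kb inside the gene.

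Nr4a1 (ENSMUSG00000023034) lies on the plus strand of chromosome 15 from 101254269 to 101274795. It has a main start at 101266846 and a second protein-coding start at 101254269, the first base of a longer transcript. The promoter at the main start was open from 101265855 to 101267081, with its summit 26 bp upstream of the start. Its fold was 3.72 in replicate 1 and 3.52 in replicate 2 (mean 3.62 ± 0.143, SD, n = 2). At 1227 bp it was wider than 95.7% of promoter regions, while its pooled fold of 3.76 stood at percentile 3.99 of them. The promoter of the longer transcript, chr15:101253701-101254172, was weaker. It had 2.70 in each replicate, and its pooled fold of 2.51 stood at percentile 0.222 of promoter regions.

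The 8 distal regions of Nr4a1 formed a run that began 25.80 kb upstream of the main start. The strongest in the pooled set was the intergenic region chr15:101246015-101247162, 20.46 kb upstream, which had 5.67 in replicate 1 and 4.92 in replicate 2 (5.30 ± 0.526, SD, n = 2). The intergenic region chr15:101240732-101241258, 25.80 kb upstream, had 5.80 and 4.96 (5.38 ± 0.591). In an intron of the longer transcript, chr15:101262512-101262993 had 5.48 and 4.40 (4.94 ± 0.766). This last region is the one 4.08 kb upstream of the main start whose letters are given above. All 3 exceeded the main promoter in each replicate, and their ranges over the replicates overlapped one another. Whether the intronic region is the enhancer known from mouse genetics was not tested.

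The other 5 distal regions of Nr4a1 were weaker. The region 22.61 kb upstream had 3.39 in replicate 1 and 2.63 in replicate 2. The one 9.80 kb upstream, in an intron of the longer transcript, had 3.62 and 2.77. The region 14.05 kb upstream had 3.27 and 3.28, and the intronic one 10.62 kb upstream had 2.83 and 3.04. The last, 18.67 kb upstream at chr15:101248056-101248314, had 2.60 in replicate 2 and no overlapping peak in replicate 1, also not in that replicate's ranked list before any threshold.

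In number, the distal regions of Nr4a1 stood high among genes. Of 21829 genes, 214 had 8 or more, Nr4a1 included, which puts it at percentile 99.2. Its 10 regions lay within 26.4 kb. Windows of this length were started at each of the 28438 regions. The length and the cut of 10 were both taken from the Nr4a1 regions after these were seen, so Nr4a1 meets them by construction. Of the 28438 windows, 6 (0.0211%) held 10 or more regions, against a median of 2. The 6 windows were at 3 places, 2 at each. Besides Nr4a1, these were Zfp36l2, which encodes an mRNA-destabilising protein, and Itgb2 with its neighbour Fam207a. Itgb2 encodes the beta chain of the leukocyte integrins. Of the windows at Nr4a1, 1 also took in a region given to Grasp. The next protein-coding starts were those of Grasp, 30.1 kb upstream of the start of the longer transcript, and Atg101, an autophagy gene, 17.4 kb downstream of the main start. No region of the conservative set between the last Nr4a1 region, ending at 101267081, and the 3′ end of the gene was given to Nr4a1.

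Nr4a2 (ENSMUSG00000026826) lies on the minus strand of chromosome 2 from 57106830 to 57124003. Its main start is at 57115038, and other protein-coding transcripts start at 57124003 and 57113072. The upstream promoter, chr2:57124050-57124428, with its summit 271 bp upstream of the outermost start, had a fold of 5.93 in replicate 1 and 5.80 in replicate 2 (5.87 ± 0.0930, SD, n = 2). The promoter at the main start, chr2:57114849-57115339, had 3.32 and 3.53 (3.43 ± 0.148). The upstream promoter was thus the higher in each replicate, by more than the spread between replicates. Between them lay 2 intronic regions. That at chr2:57117625-57117891, 2.71 kb upstream of the main start, had 5.04 and 5.96 (5.50 ± 0.647), which overlaps the values of the upstream promoter. That at chr2:57116424-57117036, 1.81 kb upstream, had 3.39 and 3.80 (3.59 ± 0.291).

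All 4 Nr4a2 regions fell within 9.6 kb, although the next protein-coding starts, of Gpd2 on the upstream side and Kcnj3 on the other, are 113.7 kb and 1675.9 kb from its outermost starts. Each replicate's own set held further weak peaks that the conservative set did not. In replicate 1 there was 1, with a fold of 3.51, 12.28 kb downstream of the main start. In replicate 2 there were 2, with 3.23 at 8.62 kb upstream and 2.69 at 61.77 kb upstream. None of these 3 was found in the other replicate.

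Nr4a3 (ENSMUSG00000028341) lies on the plus strand of chromosome 4 from 48045153 to 48086447. Its promoter region, chr4:48044938-48045346, with the summit 64 bp upstream of the main start, had a fold of 5.81 in replicate 1 and 5.94 in replicate 2 (5.88 ± 0.0932, SD, n = 2). With a −log10 p of 62.3 in the pooled set it had the smallest p of the 17 regions. A region of 1099 bp just upstream, chr4:48042669-48043767, had 4.26 and 4.17 (4.22 ± 0.0637). The intronic region chr4:48076623-48077085, 31.66 kb into the gene, had 4.69 and 4.36 (4.53 ± 0.232). The second protein-coding start of Nr4a3, at 48049114, had no region within 1 kb. A peak of 4.62 at 29.91 kb into the gene was in the pseudoreplicated set of replicate 2 and not in that of replicate 1. The next protein-coding starts were those of Sec61b, 570.3 kb upstream of the outermost start, and Stx17, 75.8 kb downstream of the second start.

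For the strongest promoter region of each gene and its distal region of highest pooled fold, the order of the mean folds was Nr4a3 promoter at 5.88, Nr4a2 upstream promoter at 5.87, Nr4a2 distal at 5.50, Nr4a1 distal at 5.30, Nr4a3 distal at 4.53 and Nr4a1 main promoter at 3.62. Neighbours in this order down to the Nr4a1 distal region did not differ beyond the spread of their replicates. The Nr4a1 promoter lay below the other 5 in fold in each replicate, but not in −log10 p. Its pooled −log10 p of 32.8 was above the 23.8 of the Nr4a2 upstream promoter and the 15.6 of the Nr4a3 distal region. It was below those of the Nr4a2 distal region at 41.1, the Nr4a1 distal region at 60.7 and the Nr4a3 promoter at 62.3.

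**Figure D2:**
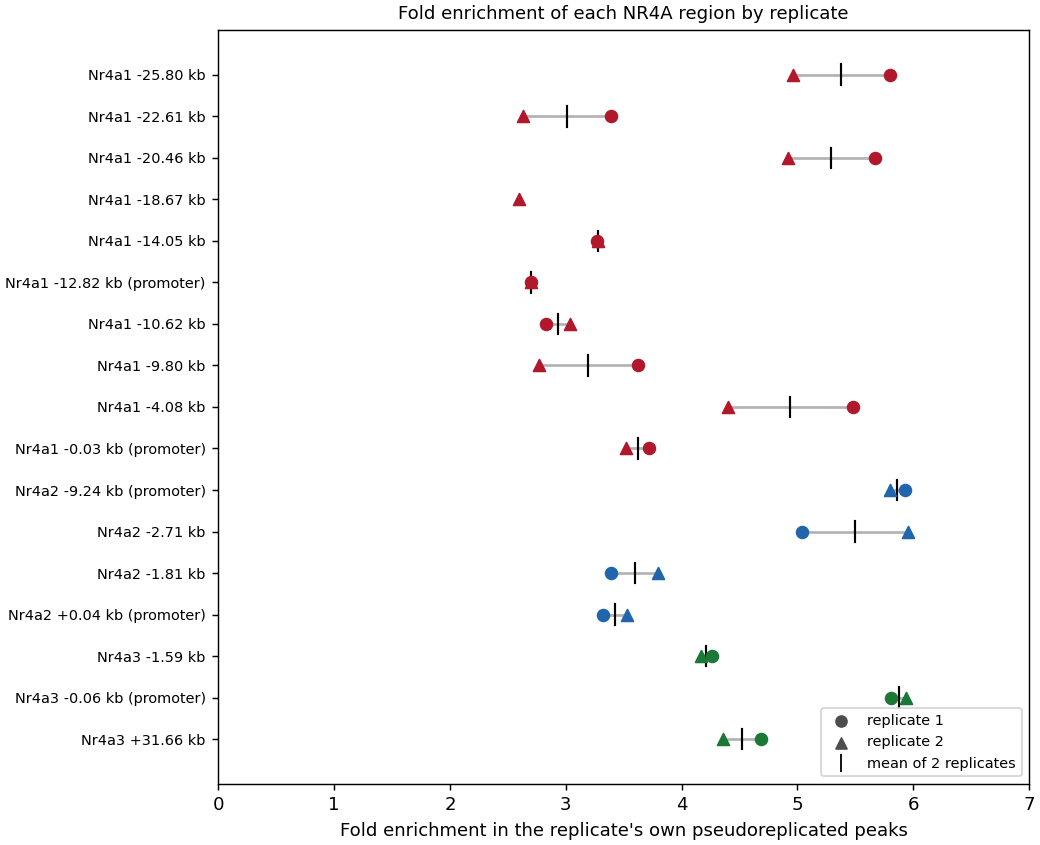
The plot gives the fold enrichment on the x axis for each of the 17 regions on the y axis, named by gene and distance from the main start, with circles for replicate 1, triangles for replicate 2 and a black bar for their mean. The Nr4a1 region 18.67 kb upstream has a triangle only, and the 3 strongest Nr4a1 regions have their circle right of their triangle.

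The next question was how well the replicates matched at these regions. Replicate 1 held 16 of the 17 regions in its own pseudoreplicated set and replicate 2 held 17, beside 94.6% and 94.9% of all regions of the conservative set. Because the conservative set rests on both replicates together, high recovery in these looser sets is partly built in. In the stricter IDR thresholded sets of the replicates the counts were 9 and 8 of 17, beside 59.8% and 60.9%. IDR, the irreproducible discovery rate, keeps peaks whose rank is alike in repeated data. In these stricter sets, 7 regions were found in both replicates, 3 in 1 of them and 7 in neither. Those found in both were the Nr4a1 regions at 25.80, 20.46 and 4.08 kb upstream and its main promoter, the Nr4a2 region at 2.71 kb upstream, and the Nr4a3 promoter and the region 1.59 kb upstream of it. An IDR score of 1000, the highest, was given to 7 of 17 regions, 4 of Nr4a1, 2 of Nr4a2 and 1 of Nr4a3, beside 54.6% of all regions. By class, the stricter sets held 2 and 3 of 5 promoter regions, beside 76.9% and 79.5%, and 7 and 5 of 12 distal regions, beside 49.6% and 49.9%.

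The replicates also differed in the height of single regions. On the log2 scale, at Nr4a1, the fold of replicate 2 minus that of replicate 1 was -0.39 at 9.80 kb, -0.37 at 22.61 kb, -0.32 at 4.08 kb, -0.22 at 25.80 kb and -0.20 at 20.46 kb upstream. It was -0.08 at the main promoter, 0.00 at 12.82 and 14.05 kb upstream, and 0.10 at 10.62 kb upstream. At Nr4a2, replicate 1 was the higher at 1 of 4 regions, and the region 2.71 kb upstream differed by 0.24. Over the 25897 regions found in both replicates the median difference was -0.03 with an SD of 0.24, 55.4% were higher in replicate 1, and 20.1% differed by 0.3 or more. Regions of 1 gene share their samples and are not independent of each other.

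The folds of the NR4A regions lay in the lower part of the range of all regions. All 5 promoter regions were below the median fold of 10589 promoter regions, 7.64, and all 12 distal regions were below the median of 17849 distal regions, 6.06. The nearest to its median was the Nr4a2 region 2.71 kb upstream, with a pooled fold of 6.01 at percentile 49.0. By −log10 p the picture differed, with 4 of 5 promoter and 7 of 12 distal regions below the class median. The Nr4a1 regions at 20.46 and 4.08 kb upstream had a −log10 p of 60.7 each, above 91.4% of distal regions, while their folds of 5.57 and 5.02 stood at percentiles 38.6 and 25.7. The region 25.80 kb upstream had 50.9, at percentile 85.6, with a fold at percentile 36.7. Depth, width and the local background, which differ between regions, were not separated here.

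**Figure D3:**
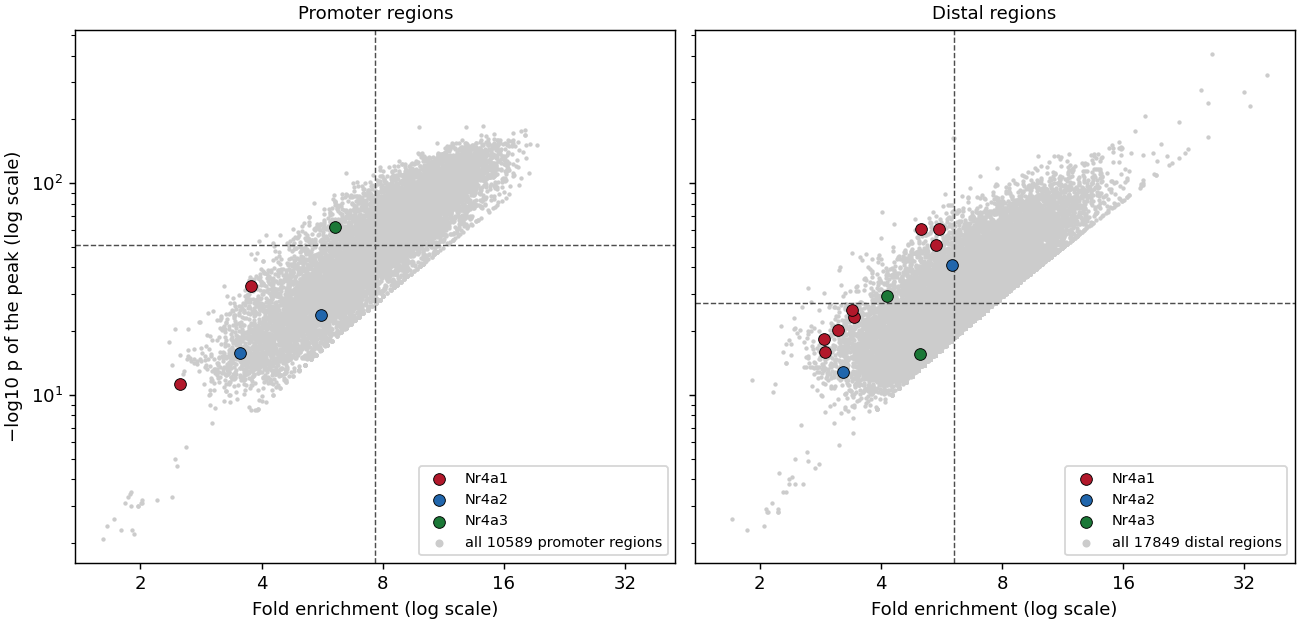
The panels plot the −log10 p of each region's strongest peak (y axis, log scale) against its fold enrichment (x axis, log scale), with promoter regions on the left and distal regions on the right. Coloured points are the NR4A regions, grey points are all regions of the class and dashed lines are the class medians. Every coloured point lies left of its vertical median line, and 3 red points on the right, the strong Nr4a1 regions, lie well above the horizontal one.

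Base composition was read from the reference sequence. Within 100 bp of the summit, the GC content was 71.6% at the main Nr4a1 promoter, 75.1% and 67.7% at the upstream and main promoters of Nr4a2, and 61.2% at the Nr4a3 promoter, beside a median of 62.7% for all promoter regions. The distal regions with most CpG dinucleotides in this window were the Nr4a3 region 1.59 kb upstream with 17, the Nr4a1 region 20.46 kb upstream with 14 and the Nr4a2 region 1.81 kb upstream with 13, against a median of 3 for all distal regions. The other distal regions of the 3 genes had 1 to 5. No non-coding gene model of GENCODE M21 overlapped any of the 17 regions.

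Sequence motifs were then searched within 100 bp of each summit, on both strands. The short CRE motif TGACG was found in 4 of 5 promoter regions, all but the promoter of the longer Nr4a1 transcript, beside 29.2% of all promoter regions. It was also in 3 of 12 distal regions, beside 12.8%. These were the 3 distal regions with most CpG dinucleotides, and TGACG itself holds a CpG. The shares of all regions given for this and the other motifs were not matched in base composition. The KLF motif was in 4 of 12 distal regions, beside 11.7% of all distal regions. These were the Nr4a1 regions 20.46, 10.62 and 4.08 kb upstream and the Nr4a2 region 1.81 kb upstream. It was also in 1 promoter region, the upstream one of Nr4a2, beside 13.7%. MEF2, searched as CTANNNNTA, was found at the promoter of the longer Nr4a1 transcript and in the Nr4a1 region 18.67 kb upstream, beside 8.33% of promoter and 16.3% of distal regions. Each of these counts as 2 matches, because the motif was found on both strands there, shifted by 1 bp, and is 1 site. The full NBRE, AAAGGTCA, to which the receptors themselves bind, was in none of the 17 windows, beside 0.746% of promoter and 2.78% of distal regions. Its core AGGTCA was in 2 distal regions of Nr4a1, 25.80 and 9.80 kb upstream, beside 16.9%.

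Motifs of factors known from myeloid enhancers were searched next. The PU.1 motif GAGGAAGT was in 1 of 12 distal regions, 14.05 kb upstream of Nr4a1, beside 11.9%. The RUNX motif TGTGGT was in 1, beside 24.5%, and the IRF motif GAAANNGAA in 2, beside 8.13%. No window held AP-1 (TGANTCA), C/EBP (TTGCNNAA), NF-kB (GGANTTTCC), EGR (GCGTGGGCG), CTCF (AGGGGGCGC) or the CArG box of serum response factor. Their shares of all distal regions were 11.3% for AP-1, 13.5% for C/EBP, 0.924% for NF-kB, 0.129% for EGR, 1.73% for CTCF and 1.18% for the CArG box. An absent match says only that these letters are not within 100 bp of the summit. With 17 regions, most from 1 gene, the shares are descriptions.

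**Figure D4:**
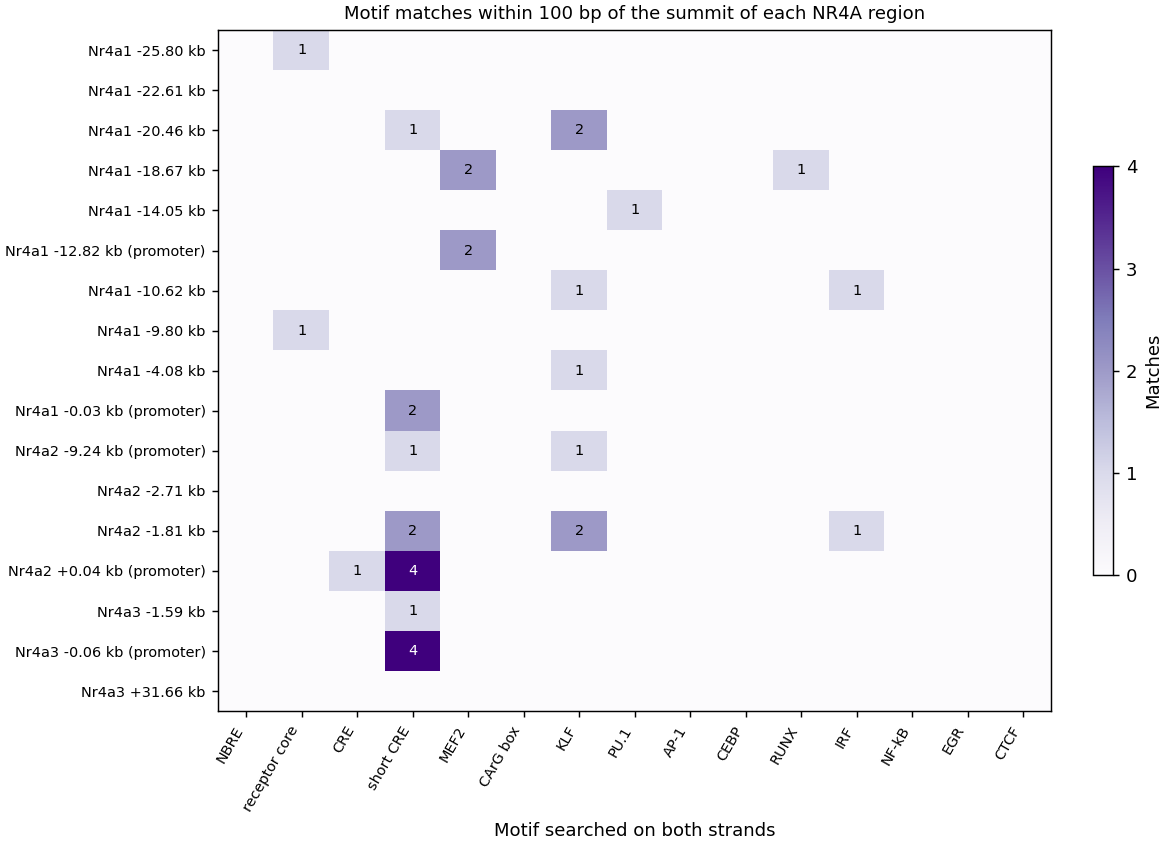
The grid gives the number of matches (colour and figure) of each of 15 motifs (x axis) within 100 bp of the summit of each of the 17 regions (y axis). The label short CRE stands for TGACG and receptor core for AGGTCA. The short CRE column is filled at 4 of 5 promoters, and the NBRE column is empty.

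In the conservative set, none of 45 other nuclear receptor genes had more distal regions than the 8 of Nr4a1. Of the 45, 20 had an open promoter (44.4%, beside 46.6% of all genes) and 16 a distal region (beside 33.7% of all genes), with a median of 0 distal regions, as for all genes. Rara, the retinoic acid receptor alpha, had 6 distal regions, Ppard and Pparg, lipid-sensing receptors, had 4 each, and the orphan receptor gene Nr2c2 had 3. In the pseudoreplicated sets of replicates 1 and 2, Nr4a1 had 7 and 9 distal regions, against 9 and 6 for Rara, 7 and 5 for Ppard, and 7 and 8 for Pparg. The order of these genes thus differed between replicates. In the conservative set there was no region for 21 of the 45. Among them was the estrogen-related receptor gene Esrrb, which had 1 distal region in the own set of replicate 1. Others of the 21 had peaks in the own sets of both replicates. Promoter peaks were at Nr0b2 (3.66 and 4.51) and Thra (3.66 and 2.89), and Rxrg had 3 and 1 distal regions. Rxra, the partner of Nr4a1 and Nr4a2, had 3 distal regions and no open promoter.

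Of 22 factors known to act on the NR4A genes, 18 had an open promoter (81.8%, beside 46.6% of all genes) and 14 a distal region (beside 33.7%). Klf4 had 8 distal regions, Mef2a had 9, and Mrtfa, a coactivator of serum response factor, had 6. Klf2 had 7 and a promoter fold of 4.40 and 4.39 in the replicates. Atf1 and Hdac9 had no region in the conservative set, although Atf1 had a promoter peak of 5.30 and 3.56 in the replicates' own sets. Among 15 partners and coregulators, 10 had an open promoter (66.7%, beside 46.6% of all genes) and 10 a distal region (beside 33.7%). The coactivator gene Ncoa3 had 7 distal regions. Bcl2, whose protein binds NUR77 at mitochondria, had 4, while Rcor2 and Rxrg had no region in the conservative set. In the own sets of replicates 1 and 2, Rxrg had 3 and 1 distal regions. Rcor2 had a promoter peak of 3.09 in replicate 2 and none in replicate 1.

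The NR4A genes are themselves immediate early genes. Of 18 others, 15 had an open promoter (83.3%, beside 46.6% of all genes) and 16 a distal region (beside 33.7%), with a median of 4.50 beside 0 for all genes. Ier5 had 13 distal regions, Fos, a part of AP-1, had 11 and Dusp1, a MAP kinase phosphatase, had 9. Of the 18, 3 had more than the 8 of Nr4a1. Of 20 nonclassical monocyte genes, 18 had an open promoter (90.0%, beside 46.6%) and 19 a distal region (beside 33.7%), with a median of 3. Cebpb, a factor needed by these cells in mice, had 15, and Hes1, Cd36 and Klf2 had 7 each. Pou2f2 had 5, while Eno3 had no region.

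A profile of 4 values, the log2 promoter fold and log2(1 + distal regions) in each replicate, was compared over 10614 genes with an open promoter in both replicates. The genes nearest to Nr4a1 were Il16, at a distance of 0.315 SD units, Tgm2 at 0.327 and Csf1r, the receptor for M-CSF, at 0.353. Nr4a1 had a promoter fold of 3.72 and 3.52 with 7 and 9 distal regions, against 3.79 and 3.22 with 6 and 8 for Csf1r. The nearest to Nr4a2 were Bcdin3d (0.037), Slc4a8 (0.050) and Nek6 (0.075). Those nearest to Nr4a3 were Tmem106a (0.079), Aldh2 (0.082) and Nr4a2 itself (0.089). Nr4a2 and Nr4a3 each had 3 distal regions in each replicate's own set. These equal counts need not stand for the same regions. For Nr4a2, a distal peak outside the conservative set lay 12.28 kb downstream in replicate 1 and 61.77 kb upstream in replicate 2. For Nr4a3, the peak 29.91 kb into the gene was in replicate 2 only. In the conservative set Nr4a3 had 2 distal regions, and replicate 1 had no peak outside the conservative regions of Nr4a3. A count in a replicate's own set can thus hold separate parts of 1 conservative region. The same applies to the 9 of Nr4a1 in replicate 2, beside 8 in the conservative set and no peak outside it.

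The label of the cells was checked against markers. Of 10 monocyte markers, 9 had an open promoter and 8 a distal region, Ccr2 being the marker with no open promoter. Of 30 markers of 6 other blood cell types, 2 had an open promoter, Pax5 of B cells and Klf1 of erythroid cells, and 13 had a distal region, a share above the 33.7% of all genes, with the most, 7, at Klrb1c of NK cells. In the pseudoreplicated sets of both replicates, promoter peaks were also at Ncr1 of NK cells (7.15 and 4.23), S100a8 of neutrophils (3.08 and 3.43) and Itga2b of platelets (3.49 and 2.64), while Klf1 had none in either. The part of other cells in the NR4A regions was not tested.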

How the data were processed

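Peak lists of 2 ATAC-seq samples of mouse monocytes, on mm10 per the file headers, were analysed. Fragment sizes spanned 153 to 309 bp (replicate 1) and 156 to 312 bp (replicate 2) per the labels. The sources used here name no aligner, peak caller or version. The fold enrichment, a linear ratio, and the −log10 p of each peak are the authors' deposited values. The deposited IDR score ran from 540 to 1000 in the conservative set, and peak summits were used as deposited. The ranked lists of the whole series hold 4 unnamed signal columns of replicates, which were not used. No counts were at hand, so depth is unknown.

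The 39944 peaks of the conservative set were merged where they overlapped. A region took its highest fold, and its summit came from the peak with the smallest p. A replicate's value is the highest fold among its own peaks that overlap by at least 1 bp. Gene models were GENCODE M21 and sequence RefSeq GRCm38.p6, where 0 peaks ran past a chromosome end. With 1 group no test between conditions was possible, and percentiles and shares are descriptions. Members, lists, motifs and alternatives were chosen with earlier results of these data known. Named genes were the members, their neighbours, the 3 most alike genes, and of each list the 3 with most regions, ties included, and up to 2 with none; some that this rule gives are not reported here. Rxra, Nr0b2, Thra, Rxrg (as a receptor), Itgb2, Fam207a, Zfp36l2 and Klf2 (as a factor) were named after their values were seen. So were the markers Ccr2, Pax5, Klf1, Klrb1c, Ncr1, S100a8 and Itga2b. Alternatives were other peak sets, a stricter score, other distances, no merging, other overlap rules and motif windows, and leaving out a replicate. The scripts were tested on simulated data. Python 3.11.15, numpy 2.4.6 and matplotlib 3.10.9 were used.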

Additional observations from a re-analysis of the deposited data

How the results depend on the processing

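The 17 regions became 15 in the other series-wide thresholded set, 25 in the replicated set and 22 in the pseudoreplicated set, and 17 with a distance of 50 kb or with the start of each gene record alone. The counts of Nr4a1 were 10 in both looser sets, while Nr4a2 had 10 regions in the replicated and 7 in the pseudoreplicated set, and Nr4a3 had 5 in each. At an IDR score of 830 or more, Nr4a1 had 5 regions, Nr4a2 had 2, and the total was 9. Without merging, Nr4a3 had 6 summits. With either replicate's own thresholded set alone, leaving out the other, the total was 8 to 9, Nr4a1 had 4 to 6, Nr4a2 1 to 2 and Nr4a3 2. Recovery was 9 regions for replicate 1 and 8 for replicate 2 in their own thresholded sets, and 16 and 17 in their ranked lists, an alternative chosen after seeing the data. Motif findings, counted as pairs of region and motif, were 21, with 11 within 50 bp and 40 within 250 bp. The windows hold fewer or more bases by construction. NBRE was at 0 in both, and short CRE was in 5 and 8 regions in place of 7. KLF was in 3 and 8 regions in place of 5. The full CRE and PU.1 were each in 0 and 1 in place of 1, and the receptor core AGGTCA in 1 and 3 in place of 2. MEF2 was in 1 and 9 in place of 2, RUNX in 1 and 4 in place of 1, IRF in 0 and 3 in place of 2, C/EBP in 0 and 2 in place of 0, and AP-1 in 0 and 1 in place of 0. The fold values moved by less than 1 SD under each of 18 alternatives, which for leaving out 1 of 2 replicates holds by construction. No paired analysis was possible because the series has 1 group. Depth was not given, so a missing peak does not show closed chromatin.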

Other observations

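At the NR4A loci, 8 regions of the looser replicated set lay outside the conservative set, 6 of them at Nr4a2 and 2 at Nr4a3. Those at Nr4a2 included a group of 3 between 58.9 and 61.7 kb upstream of the main start, with folds of 2.90, 2.90 and 2.94. At Nr4a3 there was 1 at 32.6 kb upstream with 3.41 and 1 at 29.9 kb inside the gene with 4.49. The other 3 at Nr4a2 had folds of 3.34 at 12.3 kb downstream, 1.89 at 1.0 kb upstream and 3.71 at 8.6 kb upstream. Some of these regions overlap the weak peaks given above, each found in the own set of only 1 replicate. They are those at 12.3 kb downstream and 8.6 and 61.7 kb upstream of Nr4a2, and at 29.9 kb inside Nr4a3. At Nr4a1 there was none outside the conservative set.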
